A study of Mus musculus with 12 samples.

Results

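The transcripts present in the nucleus accumbens of mice that had received only saline were described from 3 bead arrays. Members were all genes with at least 1 named probe whose detection p, which sets a probe's signal against the array's negative control beads, was under 0.05 on each of the 3 saline arrays. This held for 10842 of the 19057 genes with a named probe (56.9%). A gene's level is the mean over the 3 arrays of the log2 background-subtracted intensity of its brightest such probe, with intensities under 10 set to 10. Levels ran from 4.00 to 14.83, with a median of 8.44 and quartiles at 6.63 and 9.98. Probes differ in how strongly they bind their transcript, so the order of genes given here is an order of probe signals and not of molecule numbers.

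The study asked how the accumbens responds to cocaine after different histories of exposure, in the setting of the histone methyltransferase G9a. Every mouse was a C57BL/6J animal aged 8 to 10 weeks that was injected intraperitoneally each day and killed 1 h after the last injection. The saline group had 15 injections of saline and no cocaine. The other arrays of the series are the acute group (14 of saline, then 1 of cocaine-HCl at 20 mg/kg), the repeated group (7 of saline, then 8 of cocaine) and the withdrawal group (cocaine on 7 days, then 7 of saline and a cocaine challenge, 8 cocaine injections in all). Each group had 3 arrays, and each array carried RNA from the bilateral needle punches of 4 mice, so that 12 mice entered each group and the spread between arrays is the spread between pools. The values therefore describe mice accustomed to handling and injection, an hour after a saline injection, and not untouched animals.

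The nucleus accumbens is the ventral part of the striatum, where dopamine from the midbrain meets glutamate from the cortex, hippocampus, amygdala and thalamus. Most of its neurons are medium spiny neurons, GABAergic projection cells that carry mainly D1 dopamine receptors with dynorphin and substance P, or mainly D2 receptors with enkephalin. A small share are interneurons that use acetylcholine or combine GABA with somatostatin, neuropeptide Y or parvalbumin.

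Between 22189 and 23360 of the 45281 probes were detected on the saline arrays, against 22590 to 23803 on the cocaine arrays. Across the probes detected in saline, correlations between arrays ran from 0.9769 to 0.9935, and no pair of arrays held identical values. Saline pool 1 correlated more closely with acute array 1 and repeated array 1 (0.9898 for each) than with saline pool 2 (0.986) or saline pool 3 (0.9875). Saline pool 2 stood apart in several cortical neuron transcripts, described below, and results that rest on it are given with the values of the other pools.

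All 6 analysed members of the marker set used to check the tissue label were detected on all 3 saline arrays, with a median level of 12.23. Ppp1r1b encodes DARPP-32, the dopamine-regulated inhibitor of protein phosphatase 1, and had log2 intensities of 13.93, 13.84 and 14.01 in saline pools 1, 2 and 3. Rgs9, which shortens G protein signalling in striatal neurons, had 13.33, 13.15 and 13.31. Tac1, the substance P precursor of D1 neurons, had 13.10, 12.72 and 12.81. These values lay close together across pools, with SDs of 0.09, 0.10 and 0.20. Penk, the enkephalin precursor of D2 neurons, had 11.75, 11.67 and 11.31 (SD 0.23). Drd2, the D2 receptor itself, had 10.01, 9.83 and 10.23 (SD 0.20). Pde10a, a striatal phosphodiesterase, had 10.02, 9.70 and 9.62 (SD 0.21). All 6 lay above the median level of the detected genes, and the data thus do not go against the tissue label. Adora2a, the adenosine receptor of D2 neurons, was not analysed here.

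**Figure D1:**
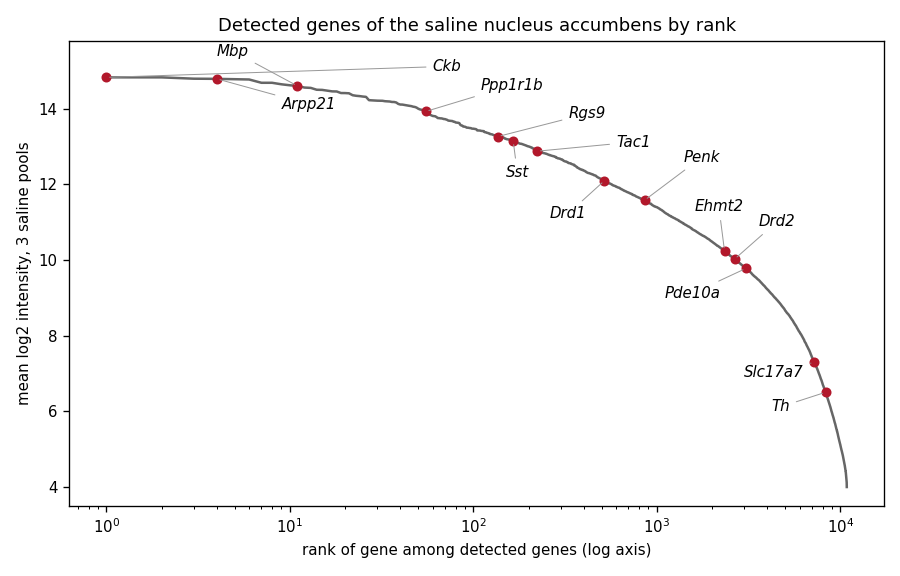
Mean log2 intensity of the 10842 detected genes over the 3 saline pools (vertical axis) against their rank (horizontal axis, log scale), with selected genes marked in red. The curve stays above 14 for 50 genes, passes Drd1 at 12.10 and ends at 4.00.

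Ribosomal proteins and the respiratory chain with ATP synthase supplied 16 of the 30 highest signals, and 1 gene of the medium spiny list, Arpp21, stood at rank 4. Ckb, the brain form of creatine kinase that buffers ATP, was highest with 14.91, 14.76 and 14.82. Fth1, the iron-storing heavy chain of ferritin, followed with 14.83, 14.82 and 14.83. Arpp21, a cAMP-regulated phosphoprotein abundant in medium spiny neurons, had 14.80, 14.70 and 14.87. Ribosomal proteins supplied 10 of the 30, led by Rpl41 (14.79 ± 0.03, SD, n = 3 pools, as for all SDs of saline levels below), Rplp1 (14.78 ± 0.08) and Rps29 (14.64 ± 0.06). Subunits encoded in the mitochondrial genome supplied 4, namely ND4, CYTB, ND1 and ATP6, and the nuclear ATP synthase genes Atp5b (14.56 ± 0.04) and Atp5g3 (14.41 ± 0.02) were 2 more. Mbp, a structural protein of myelin, stood at rank 11 (14.60 ± 0.04). The elongation factor Eef1a1 (14.68 ± 0.06), the protease inhibitor Cst3 (14.41 ± 0.06), the cyclophilin Ppia (14.36 ± 0.04), the metal-binding Mt1 (14.32 ± 0.09) and the prion protein gene Prnp (14.31 ± 0.04) were also among them. Prkacb, a catalytic subunit of the cAMP-dependent protein kinase through which dopamine receptors act, had 14.12, 14.16 and 14.38. The remaining genes were Ubb-ps, Rtl8a, Nme7 and Gm6548. Ubb-ps is by its name a pseudogene of the ubiquitin gene Ubb, and signals of such probes, and of ribosomal protein and elongation factor genes that have many near-identical copies, cannot be assigned to 1 locus with certainty.

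Signal was spread over many genes. The 10 highest carried 2.42% of the summed intensity of detected genes, the 30 highest 6.22%, the 100 highest 15.2% and the 1000 highest 54.5%. Only 50 genes (0.461%) reached a level of 14, 517 lay from 12 to 14, 2122 from 10 to 12, 3469 from 8 to 10, 2793 from 6 to 8 and 1891 (17.4%) below 6. Of the 100 genes highest in saline, 95, 93 and 91 were also among the 100 highest of the same probes in the acute, repeated and withdrawal groups. The choice of probe mattered more than the pool. Among 4320 genes with several detected probes, the brightest exceeded the second by a median of 1.20, and in 1404 of them (32.5%) by more than 2 on the log2 scale. With the mean over a gene's probes in place of the brightest, 62 of the 100 highest genes kept their place among the 100.

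Ribosomal protein genes had the highest median level of the gene classes listed. Of 59 measured genes 53 were detected, with a median level of 13.06 against 8.44 for all detected genes, and 19 of the 53 were among the 100 highest. They carried 4.76% of the summed intensity, at a median SD of 0.06. Rpl14, Rpl17, Rpl39l, Rpl6, Rps20 and Rps23 were not detected on all 3 arrays by their probes. Genes of oxidative phosphorylation, the respiratory chain and ATP synthase, had 70 of 75 detected with a median of 12.02. Cox5b (14.05 ± 0.07), Ndufa13 (13.82 ± 0.03), Atp5j2 (13.74 ± 0.10) and Ndufa4 (13.64 ± 0.12) followed Atp5b and Atp5g3. The proteasome, which degrades tagged proteins, had 33 of 39 genes detected (median 10.99) and the vacuolar proton pump, which acidifies vesicles, 16 of 20 (median 11.59).

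The promoter of Rpl41, the brightest ribosomal gene, is shown because its class stood out by a short motif. Promoter windows from RefSeq on build GRCm38.p6, reaching from 250 bases before to 50 bases after the annotated start of each gene, were searched on both strands for CTTCCG, the core of elements bound by ETS-type factors. It occurred in 32 of 44 detected ribosomal genes that had a window (72.7%), against 33.8% of 8793 detected genes and 18.8% of all 27025 genes. These are the 120 bases before the start of Rpl41 at chr10:128549169-128549288 on the minus strand, written 5′ to 3′ with the match on the opposite strand, CGGAAG, in capitals.
Rpl41: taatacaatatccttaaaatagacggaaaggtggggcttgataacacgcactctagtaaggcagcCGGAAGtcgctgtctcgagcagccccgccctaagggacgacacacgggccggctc
The match begins 55 bases before the start, and another begins 1 base before it and runs past the stretch shown. A match describes the letters of the window and does not show that a factor binds there.

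Genes shared by both kinds of medium spiny neuron had the highest median of the neuronal cell type lists, with 19 of 20 measured members detected, a median level of 12.37 and 5 members among the 100 highest. After Arpp21 came Pde1b, a calmodulin-activated phosphodiesterase, with 14.15, 14.24 and 14.20. Gng7, the gamma subunit of the striatal G protein that couples dopamine receptors to adenylyl cyclase, had 13.80, 13.62 and 13.92. Rasd2, which encodes the striatal GTPase Rhes, had 13.42, 13.51 and 13.48. The exchange factor Ngef (13.32 ± 0.10), the homeobox factor Meis2 (13.16 ± 0.17), the sodium channel subunit Scn4b (12.87 ± 0.12) and the transcription factor Bcl11b (12.37 ± 0.24) lay next. The dimmest detected member was Strn (8.40 ± 0.20), a calmodulin-binding scaffold. Adcy5, the main adenylyl cyclase of striatal neurons, was not detected by its single probe on any saline array.

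D1 and D2 markers were both present. Pdyn, the dynorphin precursor of D1 neurons, had 13.77, 13.56 and 13.90 in the 3 pools. Drd1, the D1 receptor, had 12.17, 11.99 and 12.14. The transcription factor Isl1 (10.45 ± 0.18) and the transporter family member Slc35d3 (9.94 ± 0.19) followed, while Ebf1 (6.09 ± 0.27) and Eya1 (4.85 ± 0.61) lay low. In all, 7 of 8 D1 markers were detected with a median of 10.45, and Chrm4, a muscarinic receptor of D1 neurons, was not detected on all 3 arrays. Of the D2 list, 5 of 5 analysed members were detected with a median of 9.24. Besides Penk and Drd2 these were the orphan receptor Gpr6 (9.24 ± 0.03), Plxdc1 (8.77 ± 0.09) and the transcription factor Sp9 (7.52 ± 0.40). Saline pool 2 had the lowest value of the 3 pools for Pdyn, Drd1, Tac1, Isl1, Slc35d3 and Eya1 and the highest for Ebf1, and the summed D1 intensity was 30147, 25075 and 29468 in pools 1, 2 and 3, against 25039 to 29354 on the cocaine arrays. The saline pools thus spanned about the same range as the cocaine arrays. In bulk tissue, fewer cells of a type and less RNA per cell cannot be told apart.

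**Figure D2:**
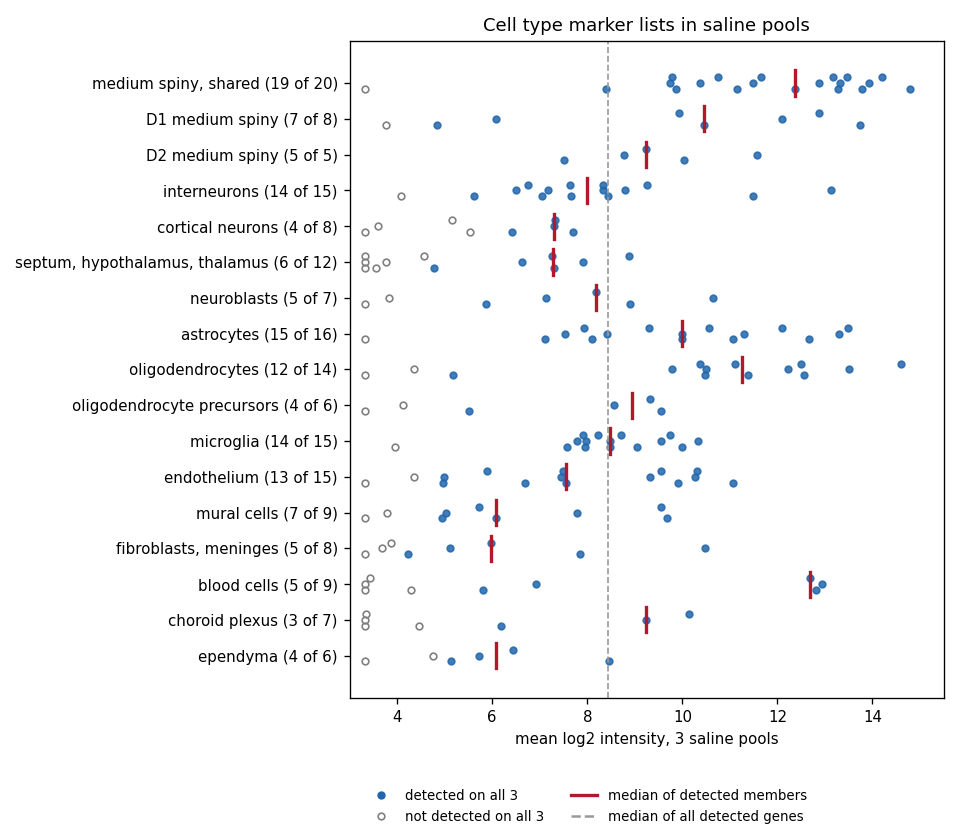
Level of each marker gene (mean log2 intensity over the 3 saline pools, horizontal axis) by cell type list, with filled points for genes detected on all 3 arrays, open points for the others, a red bar at the median of the detected members and a dashed line at the median of all detected genes (8.44). Medium spiny, oligodendrocyte and blood lists have the highest medians (12.37, 11.25 and 12.68) and cortical, mural and meningeal lists lie below the line.

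Interneuron markers covered a wide range, with 14 of 15 detected and a median of 8.00. Sst, the somatostatin precursor, had 13.13, 13.45 and 12.82, and Npy, the neuropeptide Y precursor of the same interneuron class, 11.40, 11.78 and 11.31. The calcium-binding Calb2 had 9.26 ± 0.25. Cholinergic interneurons were marked by Chat, the acetylcholine-synthesising enzyme (8.43 ± 0.15), the choline transporter Slc5a7 (8.34 ± 0.35) and the transcription factors Nkx2-1 (7.66 ± 0.11) and Lhx8 (7.18 ± 0.48). Th, the enzyme that commits tyrosine to dopamine synthesis, had 6.14, 6.43 and 6.95. Lhx6, the dimmest detected member, had 5.62 ± 0.08, and Htr3a was not detected on all 3 arrays. Pvalb, Cck and Vip differed between the pools and are taken up with the cortical markers.

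Peptide precursors were among the brightest neuronal transcripts, with 21 of 31 measured genes detected and a median level of 10.74. The precursors already named were joined by Scg5 (12.39 ± 0.18) and Scg2 (12.36 ± 0.13), granule proteins of the secretory pathway. Cartpt, whose peptide CART is regulated by psychostimulants, had 11.92, 11.44 and 11.59. Scg3 (11.59 ± 0.22), Vgf (11.40 ± 0.07), Pcsk1n (10.74 ± 0.13) and Chgb (10.58 ± 0.33) lay next, and the neurotensin precursor Nts (8.58 ± 0.32) and the thyrotropin-releasing hormone precursor Trh (7.92 ± 0.24) were lower. The dimmest detected precursor was Gal at 4.78 ± 0.50. Hypothalamic precursors (Oxt, Avp, Pomc, Hcrt, Pmch and Crh), Adcyap1, Pnoc, Grp and Nmu were not detected on all 3 arrays.

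Several of these precursor promoters hold the full cAMP response element, the site bound by the factor CREB, and their sequences are shown for that reason. The element TGACGTCA, which reads the same on both strands, occurred in the 300-base windows of 4 of 19 detected precursor genes (21.1%), against 3.66% of 8793 detected genes and 2.03% of all 27025 genes. The lines give the 120 bases before each start on GRCm38.p6, 5′ to 3′ in the direction of the gene, with the element in capitals. Cartpt lies at chr13:99900684-99900803 on the minus strand, Chgb at chr2:132781522-132781641 on the plus strand, Scg2 at chr1:79440027-79440146 on the minus strand and Sst at chr16:23890845-23890964 on the minus strand.
Cartpt: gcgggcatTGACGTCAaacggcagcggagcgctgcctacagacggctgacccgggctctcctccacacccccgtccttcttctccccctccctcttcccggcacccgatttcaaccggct
Chgb: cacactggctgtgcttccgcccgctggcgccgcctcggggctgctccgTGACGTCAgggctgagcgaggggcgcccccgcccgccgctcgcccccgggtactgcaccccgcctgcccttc
Scg2: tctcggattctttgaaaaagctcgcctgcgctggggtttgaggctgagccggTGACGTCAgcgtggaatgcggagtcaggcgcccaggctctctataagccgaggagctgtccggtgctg
Sst: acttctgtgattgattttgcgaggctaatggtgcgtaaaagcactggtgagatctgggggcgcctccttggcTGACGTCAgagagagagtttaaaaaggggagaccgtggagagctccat
The element begins 112, 72, 68 and 48 bases before the start in Cartpt, Chgb, Scg2 and Sst. The part-site TGACG, which the full element contains, was found in 14 of 19 precursor genes (73.7%), against 35.4% of detected genes and 6228 of all 27025 genes. It was also found in 12 of 16 activity-regulated genes and 22 of 44 ribosomal genes. None of the 16 medium spiny genes with a window held the full element, and 5 (31.2%) held TGACG. The ribosomal motif CTTCCG was found in 1 of the 19 precursor genes (5.26%). As above, these are counts of letters and not of bound sites.

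Glial transcripts were prominent. Oligodendrocyte genes had 12 of 14 measured members detected with a median of 11.25. After Mbp came the tight-junction protein Cldn11 (13.50 ± 0.08), the transcription factor Olig1 (12.56 ± 0.07) and the myelin proteins Mag (12.49 ± 0.10) and Mobp (12.22 ± 0.10). Their median SD was 0.10. Aspa was dimmest at 5.17 ± 0.06, and Olig2 and Ermn were not detected on all 3 arrays. Of the precursor list, Pdgfra (9.56 ± 0.07), Gpr17 (9.32 ± 0.04), Lhfpl3 (8.57 ± 0.21) and Cspg4 (5.50 ± 0.31) were detected.

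Astrocyte genes had 15 of 16 members detected with a median of 10.00. The glutamate transporter Slc1a3 had 13.37, 13.47 and 13.61, the glycolytic enzyme Aldoc 13.31, 13.36 and 13.24, and the gap junction protein Gja1 12.79, 12.52 and 12.69. Apoe, the lipid carrier, had 12.10 ± 0.07 and Gfap, the filament protein of reactive astrocytes, 7.94 ± 0.19. Mlc1 was not detected. Microglia genes had 14 of 15 members detected at a median of 8.48, led by Fcrls (10.32 ± 0.02) and the complement genes C1qb (10.00 ± 0.12) and C1qc (9.75 ± 0.11). Itgam was not detected on all 3 arrays.

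Vessel markers were lower. Endothelial genes had 13 of 15 detected at a median of 7.56, led by the glucose transporter Slc2a1 (11.07 ± 0.12), Itm2a (10.31 ± 0.10) and the VEGF receptor Flt1 (10.26 ± 0.04). Pericyte and smooth muscle genes had 7 of 9 detected at a median of 6.07, and fibroblast and meningeal genes 5 of 8 at 5.98, with the growth factor Igf2 the brightest at 10.47 ± 0.08. Red cell transcripts were bright. The haemoglobin genes Hbb-bs, with 13.27, 12.95 and 12.62, and Hba-a1, with 13.06, 12.86 and 12.54, were highest in pool 1 and lowest in pool 3. Of the leukocyte genes, Cd52, a lymphocyte surface glycoprotein, had 6.96, 7.04 and 6.79, while Ptprc, S100a8, S100a9 and Cd3e were not detected on all 3 arrays.

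Ventricle-lining and progenitor genes were detected in part. Of the choroid plexus list 3 of 7 members were detected, namely Clic6 (10.14 ± 0.19), Kl (6.18 ± 0.44) and Ttr, the thyroxine carrier that choroid plexus makes in large amounts. Ttr had 9.15, 9.18 and 9.35 in the saline pools, against 3.32 to 10.73 on the cocaine arrays, where the acute group had 3.32, 7.32 and 5.17. The saline values thus lay within the cocaine range, and the fitted difference of 2.22 ± 1.15 (SE) did not pass (limma adjusted p = 0.630). Folr1, Kcne2, Aqp1 and Otx2, other choroid plexus markers, were not detected on all 3 saline arrays. Dcx, a marker of migrating neuroblasts, had 8.28, 7.91 and 8.35, Sox11 10.65 ± 0.15 and Dlx1 8.90 ± 0.13. The proliferation gene Top2a was not detected on all 3 arrays.

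Several cortical glutamatergic genes separated the pools. Slc17a7, the vesicular glutamate transporter of cortical neurons, had 6.83, 10.23 and 4.82 in saline pools 1, 2 and 3. The transcription factor Neurod2 had 5.12, 8.03 and 3.46 and Tbr1 4.19, 7.97 and 3.32, the last being the floor, and neither was detected on all 3 arrays. Pool 2 was highest for each. Fezf2 (7.56, 7.90 and 7.66), Cux2 (7.13, 7.52 and 7.29) and Rorb (6.25, 6.77 and 6.21) also had their highest value in pool 2, by smaller margins. Emx1 had 3.32, 4.17 and 3.32, near the floor, and Neurod6 was at the floor in all 3 pools. The summed intensity of the 4 detected cortical genes was 518, 1734 and 461, against 403 to 1655 on the 9 cocaine arrays. Pool 2 lay above them all and the other saline pools near their low end. In pool 2 this sum rests mainly on Slc17a7, so it does not describe the 4 genes alike. Slc17a6, the transporter of thalamic and hypothalamic glutamatergic neurons, had 6.32, 9.09 and 6.47. Zic1, at 9.06, 8.80 and 8.75, and Trh, at 8.01, 7.65 and 8.09, markers of septum and hypothalamus, were not highest in pool 2. The hypothalamic precursors Oxt, with 3.62, 4.86 and 5.20, and Pmch, with 3.32, 4.63 and 3.32, were detected on 2 and 1 of the saline arrays, and Avp, Pomc, Hcrt and Sim1 on none.

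Pool 2 also stood highest in the genes of widest span. Of 6158 genes at a level of 8 or more, 342 (5.55%) spanned more than 0.5 on the log2 scale and 21 more than 1. Among the 342, pools 1, 2 and 3 were the furthest from the middle pool in 71, 136 and 135 genes, so that pool 3 stood apart about as often as pool 2. Among the 21 the same counts were 1, 18 and 2. Cck, the cholecystokinin precursor, had the widest span with 7.69, 10.10 and 7.24. Ccn2, a matrix-associated growth regulator, had 8.87, 10.64 and 8.12, and Pvalb, the calcium buffer of fast-spiking interneurons, 8.16, 10.19 and 8.05. In all 3 genes pool 2 was highest, and pools 1 and 3 lay closer to each other than to it.

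The 10 genes of widest span, Cck, Ccn2, Pvalb, Vxn, Kcnc4, Tmem178, Fos, Cadps2, Nrip3 and Crhbp, were each highest in pool 2. Below a level of 8, Cort (6.35, 8.51 and 5.18) and Vip (6.49, 8.37 and 6.29), peptides of interneurons, were also highest in pool 2. Fos, the immediate early gene, had 8.51, 9.55 and 8.11, and Arc, an activity-induced synaptic gene, 8.83, 9.76 and 8.73. Between pools 1 and 3, 2 genes at a level of 8 or more differed by more than 1, against 14 between pools 1 and 2 and 15 between pools 2 and 3. The cortical transcripts Slc17a7, Neurod2 and Tbr1 moved with these genes, and their part in the spread was not tested. On the cocaine arrays Cck ranged from 6.60 to 10.19 and Pvalb ranged from 7.96 to 9.94.

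**Figure D3:**
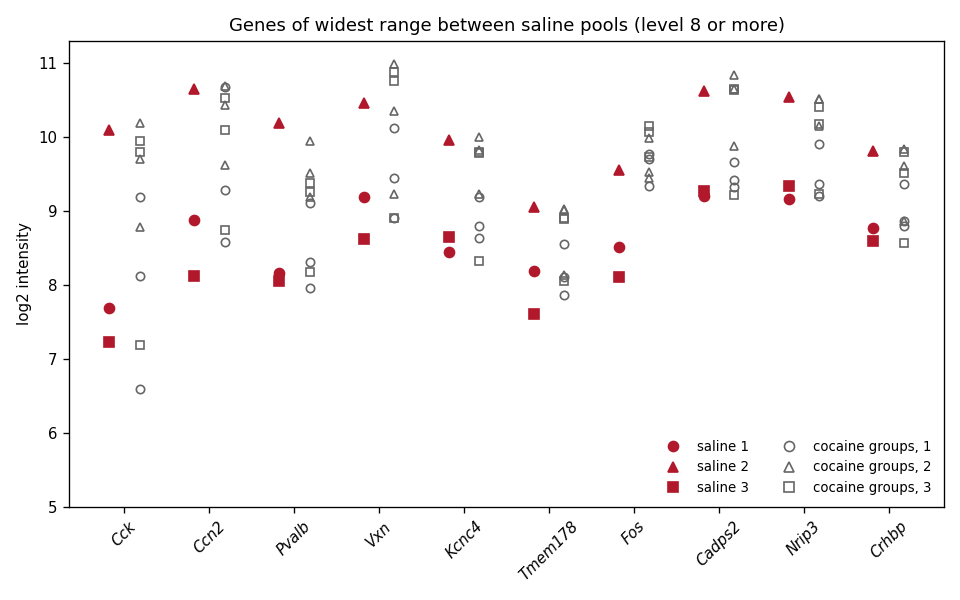
Log2 intensity (vertical axis) of the 10 genes at level 8 or more with the widest range between saline pools, with saline pools in red at the left of each pair and the 9 cocaine arrays as open grey symbols at the right, the shape giving the replicate number. Saline pool 2 (red triangle) is the highest saline pool for all 10 genes, as for Cck at 10.10 against 7.69 and 7.24.

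Apart from these genes the pools were close. The median SD between pools was 0.142 over all detected genes, against 0.157 in the acute, 0.119 in the repeated and 0.127 in the withdrawal group on the same probes. It fell with the level, being 0.307 for genes below 6, 0.123 from 8 to 10 and 0.062 at 14 or more. Of 392 genes that spanned more than 1, 314 lay below a level of 6, where values are near the floor. Without pool 2 the median SD was 0.119, and without pools 1 and 3 in turn it was 0.121 and 0.112. A median SD over 2 pools tends to be lower than over 3 at the same spread. These values can thus be compared with each other but not with 0.142. Median absolute differences between pools were 0.158 (1 and 2), 0.168 (1 and 3) and 0.171 (2 and 3).

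Dopamine receptors were represented by Drd1 and Drd2. Drd3, Drd4 and Drd5 were not detected on all 3 saline arrays, Drd3 having 4.82, 4.70 and 3.32. The dopamine transporter Slc6a3 and the vesicular transporter Slc18a2, transcripts of the midbrain neurons that project to the accumbens, were not detected on all 3 either. Ddc, which makes dopamine from its precursor, had 9.05 ± 0.14, and Maob, which degrades it, 8.53 ± 0.12. Together 5 of 11 analysed genes of the dopamine system were detected, a share of 45.5% against 56.9% for all genes. Downstream of the receptors, 44 of 46 dopamine transducers were detected with a median of 10.66, among them Prkacb, Prkar1a (13.35 ± 0.05) and Ppp1ca (12.56 ± 0.04), while Prkar2a and Adcy5 were not detected on all 3 arrays.

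Opioid and cannabinoid genes had 8 of 11 members detected with a median of 7.93. Oprl1, the nociceptin receptor, had 8.60 ± 0.05, Oprk1, the dynorphin receptor, 7.74 ± 0.16, and Cnr1, the main brain cannabinoid receptor, 5.47 ± 0.15. Oprm1, the mu opioid receptor, was at the floor on all 3 saline arrays with its 1 probe. Mgll, which degrades the endocannabinoid 2-AG, was the brightest with 11.15, 11.21 and 11.08, and Daglb, which makes it, had 10.09 ± 0.09. Dagla and Cnr2 were not detected on all 3 arrays.

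Ionotropic glutamate receptors had 12 of 15 subunits detected with a median of 9.18. The AMPA subunits Gria2, with 12.55, 12.47 and 12.70, and Gria1, with 11.73, 11.92 and 12.11, were brightest, followed by Gria3 (11.14 ± 0.13). The NMDA subunit Grin2b had 10.74 ± 0.13, Grin3a 9.92 ± 0.16 and Grin2a 5.84 ± 0.48. The kainate subunits Grik5 (9.44 ± 0.02) and Grik2 (8.92 ± 0.19) lay between, and Grin2c was dimmest at 5.42 ± 0.12. Grin2d, Grin3b and Grik3 were not detected on all 3 arrays. Metabotropic receptors were represented by Grm5, the postsynaptic receptor of medium spiny neurons (11.39 ± 0.21), Grm7 (10.64 ± 0.07) and Grm4 (9.92 ± 0.10), with Grm3, Grm6 and Grm8 not detected on all 3 arrays.

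Genes of GABA synthesis and vesicle loading were at the top of the neuronal range, while the GABA transporter Slc6a11 lay low at 7.01 ± 0.26. Slc32a1, which loads GABA into vesicles, had 13.68, 13.53 and 13.64. The synthesising enzymes Gad1, with 13.43, 13.25 and 13.20, and Gad2, with 12.95, 12.85 and 13.25, and the degrading enzyme Abat (12.83 ± 0.07) followed. Of the GABA-A subunits 6 of 14 were detected (42.9%, against 56.9% of all genes), with a median of 7.38. Gabrb1 (10.86 ± 0.16) and Gabrd, an extrasynaptic subunit (10.66 ± 0.14), led them. Gabra4, which is known from striatal neurons, had 3.57, 3.89 and 3.32 with its 1 probe and was not detected on any saline array, nor was Gabra5. The GABA-B subunit Gabbr1 had 9.23 ± 0.08 and Gabbr2 4.53 ± 0.46.

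Receptors for acetylcholine and serotonin were mostly low. Of 5 muscarinic receptors 2 were detected (40.0%, against 56.9% of all genes), Chrm3 at 5.26 ± 0.82 and Chrm1 at 5.12 ± 0.31. Of 16 nicotinic subunits 3 were detected (18.8%), the beta subunit Chrnb2 at 8.25 ± 0.07, its partner Chrna4 at 6.77 ± 0.39 and Chrnb1 at 4.60 ± 0.54. Chrna6 and Chrnb3, subunits of dopamine terminals, were not detected on any saline array. Of 14 serotonin receptors 7 were detected with a median of 6.12. Htr1d had 9.09, 9.29 and 9.22 and was the brightest, Htr1f had 7.95 ± 0.11 and Htr1b 6.62 ± 0.12, while Htr2a, Htr7 and Htr3a were not detected on all 3 arrays. Among other amine and purine receptors, Adra2c, an adrenergic receptor of medium spiny neurons (9.79 ± 0.11), Hrh3, a histamine receptor (9.21 ± 0.07), and P2ry1 (9.97 ± 0.32) lay highest.

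Receptors for peptides were detected in part, with 16 of 34 detected (47.1%, against 56.9% of all genes) and a median of 7.17. Ntsr2, a neurotensin receptor of astrocytes, had 11.34, 11.25 and 11.31. Cckbr, the brain cholecystokinin receptor, had 9.69 ± 0.15, the somatostatin receptor Sstr2 8.73 ± 0.45, Trhr 8.54 ± 0.26 and Mchr1, the receptor for melanin-concentrating hormone, 8.15 ± 0.24. Npy5r (7.72 ± 0.13), Npy1r (7.43 ± 0.21), Npy2r (7.20 ± 0.34) and Tacr1, the substance P receptor (7.14 ± 0.24), lay near the median. Mc4r was the dimmest detected at 4.65 ± 0.34. Receptors for oxytocin, vasopressin and galanin (Oxtr, Avpr1a, Avpr1b, Galr1, Galr2 and Galr3) were at the floor on all 3 saline arrays.

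**Figure D4:**
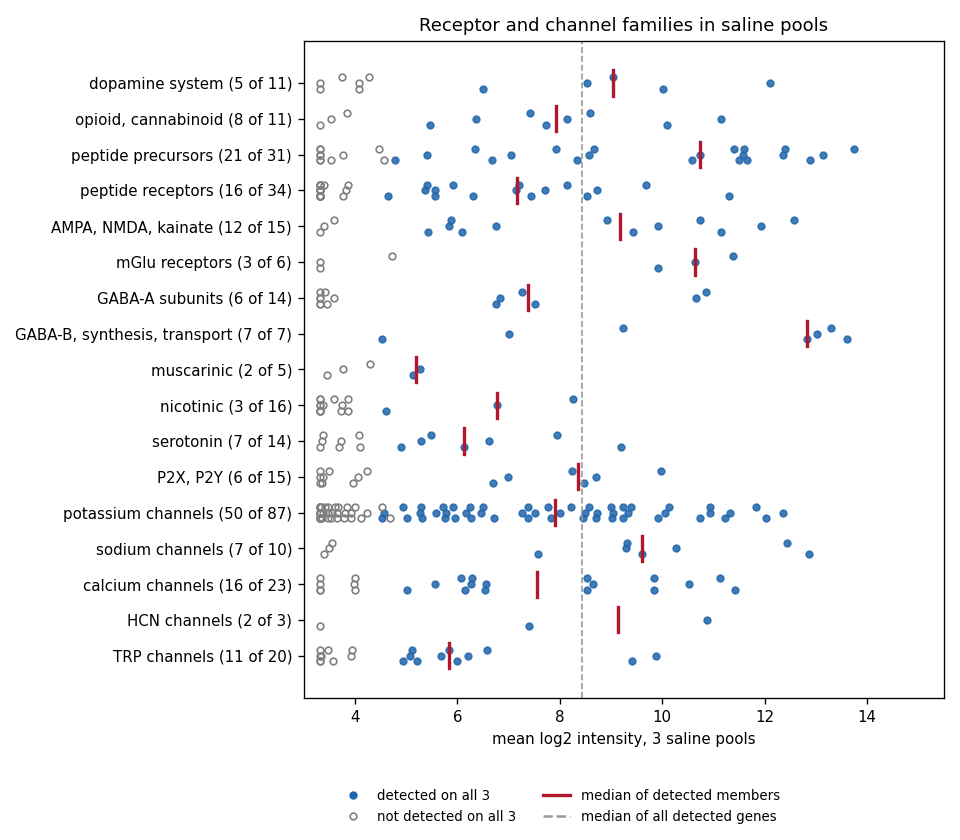
Level of each receptor or channel gene (mean log2 intensity over the 3 saline pools, horizontal axis) by family, with filled points for genes detected on all 3 arrays, open points for the others, red bars at the medians of detected members and a dashed line at the median of all detected genes. The list of GABA-B receptors with GABA synthesis and transport has the highest median (12.83) and muscarinic receptors the lowest (5.19).

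Genes with a Kcn symbol, which are potassium channel subunits apart from the non-coding Kcnq1ot1 (detected) and Kcnmb4os1 (not detected), numbered 50 detected of 87 (57.5%), a share close to that of all genes, with a median of 7.91. The auxiliary subunits Kcnab1, with 12.37, 12.19 and 12.49, and Kcnab2, with 11.85, 12.16 and 12.09, were brightest. They were followed by Kcnd2, an A-type channel (11.83 ± 0.16), Kcna6 (11.33 ± 0.15), the two-pore channel Kcnk1 (11.23 ± 0.11) and Kcnj4, an inward rectifier of medium spiny neurons (10.93 ± 0.12). Sodium channels had 7 of 10 detected, with the beta subunits Scn4b and Scn2b (12.44 ± 0.05) above Scn2a (10.27 ± 0.04), Scn3a (9.61 ± 0.24) and Scn1a (9.32 ± 0.31). Scn7a, Scn10a and Scn11a, channels of peripheral tissues, were not detected. Calcium channels had 16 of 23 detected, led by Cacnb4 (11.42 ± 0.13), Cacna2d3 (11.13 ± 0.31) and the T-type channel Cacna1h (10.52 ± 0.11), and Cacna1c and Cacna1e were not detected on all 3 arrays. Hcn2, which carries the hyperpolarisation-activated current, had 10.88 ± 0.10.

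Synaptic machinery was bright. Of 23 vesicle genes 21 were detected with a median of 12.01, led by the calcium sensor Syt1 (13.84 ± 0.06), the complexin Cplx1 (13.68 ± 0.20) and synaptophysin Syp (13.25 ± 0.20). Snap25, a fusion protein that neurons use widely, was not detected on any saline array and Unc13a not on all 3, so a missing detection on this array does not show that a transcript is absent. Postsynaptic genes had 18 of 20 detected with a median of 11.50, led by Camk2n1 (13.89 ± 0.09), Camk2b (13.80 ± 0.06) and Calm3 (13.53 ± 0.05), and Shank1 and Shank2 were not detected on all 3 arrays.

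Activity-regulated genes were present under saline, an hour after an injection. Of 28 analysed members 20 were detected with a median of 8.79. Egr1, a zinc finger factor induced by synaptic activity, had 13.47, 13.49 and 13.27, Egr3 12.09, 11.87 and 12.12, and Egr4 11.24, 11.29 and 10.84. Homer1 (11.41 ± 0.13), Dusp1 (10.65 ± 0.26) and Dusp6 (10.59 ± 0.22) followed, while Bdnf, Nr4a1, Nr4a3, Atf3, Ier2, Ier5, Btg2 and Klf10 were not detected on all 3 arrays. Ehmt2, which encodes G9a, had 10.20, 10.21 and 10.31 in the saline pools, and its partner Ehmt1 5.97, 5.85 and 5.02. Prdm2 (8.53 ± 0.14) and Setdb1 (7.98 ± 0.07), further genes of H3K9 methylation, lay between them, and Suv39h2 was not detected.

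Whole gene classes were nearly empty. Of 1071 olfactory receptor genes 14 were detected (1.31%), against 56.9% of all genes, and the brightest, Olfr724, had 5.83, 6.00 and 5.99. Of 170 vomeronasal receptors 2 were detected (1.18%), Vmn1r69 at 5.83 ± 0.19 and Vmn1r200 at 4.60 ± 0.12. None of 35 taste receptors, 49 defensins, 23 placental prolactins or 13 Ly49 receptors of natural killer cells was detected. With a threshold of 0.05 on each of 3 arrays, a few genes near the floor can pass, and the median of the detected olfactory receptors was 4.45. Of 38 Hox genes, which pattern the trunk and hindbrain, 3 were detected, none above 5.42.

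Keratins and secreted immune proteins were detected in part. Of 91 keratin and keratin-associated genes 6 were detected, Krt10 with 11.43, 11.40 and 11.34, Krt9 with 9.22 ± 0.24 and Krt12 with 8.87 ± 0.31. Of 32 interleukins 8 were detected, led by the glial cytokine Il33 (10.16 ± 0.13), Il18 (9.78 ± 0.13) and Il34 (8.95 ± 0.11), a ligand that maintains microglia, while Il1b, Il6 and Il10 were not. Of 36 chemokines 11 were detected, led by the neuronal Cx3cl1, with 12.42, 12.64 and 12.63, and Ccl27a (12.26 ± 0.04). Of 19 Wnt ligands 6 were detected, led by Wnt2 (9.69 ± 0.01) and Wnt7a (9.48 ± 0.16). In contrast, 51 of 59 Rab GTPases (86.4%) and 230 of 328 genes with a Zfp symbol (70.1%) were detected.

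**Figure D5:**
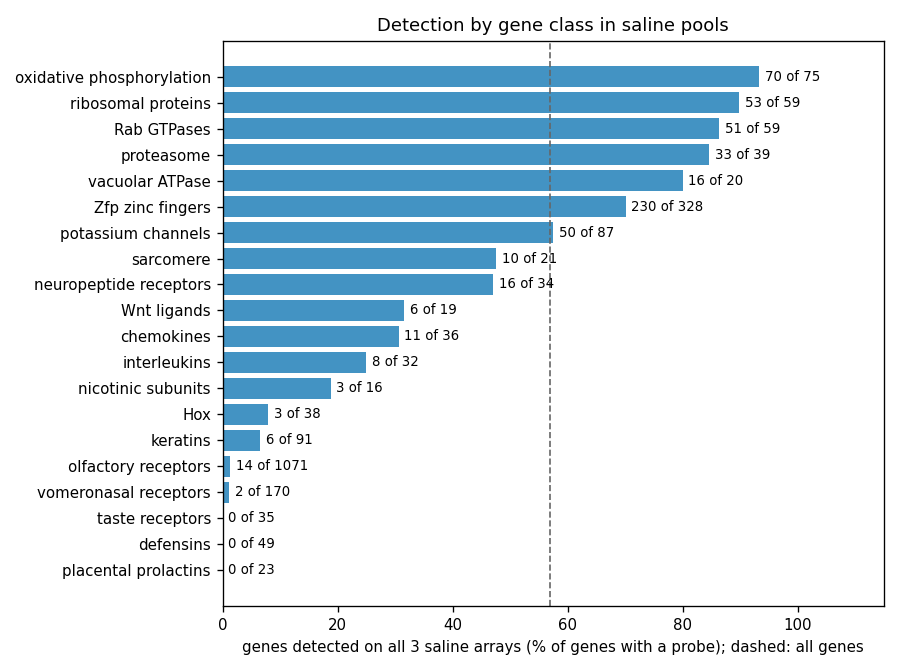
Share of the measured genes of 20 classes that were detected on all 3 saline arrays (bars, percent), with the numbers beside each bar and a dashed line at the share of all genes (56.9%). Of the classes drawn, oxidative phosphorylation (70 of 75) and ribosomal genes (53 of 59) lie at the top and taste receptors, defensins and placental prolactins (0) at the bottom.

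The detection threshold cut through genes of nearly equal level. The 3 members closest to it, Zfp109, Mab21l2 and Tnrc18, had levels of 4.40, 4.43 and 4.29, and the 3 closest genes left out, Ybx2, Iws1 and Serpina3j, had 4.70, 4.24 and 4.42. On their worst array the detection p was 0.0496, 0.0485 and 0.0485 inside and 0.0501, 0.0507 and 0.0507 outside.

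The saline arrays were set against the other 9 arrays to see where the baseline differs from the cocaine groups, as saline minus the mean of the acute, repeated and withdrawal means, for 25478 probes detected on at least 3 of the 12 arrays. After Benjamini-Hochberg adjustment of the limma p-values, 0 probes (0.0%) were under 0.05, the lowest adjusted p being 0.0574, while 2130 (8.36%) had an unadjusted p under 0.05, 1070 higher in saline (4.2%) and 1060 lower (4.16%). The submitters' own rule for gene lists, a 1.3-fold change together with a raw p below 0.05, was met by 789 probes (3.1%), of which 336 (1.32%) were higher and 453 (1.78%) lower in saline. Counts by this rule were 28 without background subtraction and 304 with a floor of 30. The 3 cocaine groups differ in their history of exposure, and the mean over them does not describe any of them alone.

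Among the lists with at least 10 members in the fit, activity-regulated genes had the largest median difference. Over 22 members in the fit the median was -0.38 on the log2 scale, against -0.0037 for all probes, and 12 members had an unadjusted p under 0.05, all lower in saline, against 4.16% of all probes. The summed intensity of the 20 members detected on all 3 saline arrays was 29142, 30239 and 26230 in the saline pools. On the cocaine arrays it was 32208 to 40783. Egr1, the brightest of these members, weighs most in the sum. Egr2, an activity-induced zinc finger factor, had 8.94, 8.79 and 8.21 in the saline pools, against 9.97, 10.44 and 10.25 in the acute, 9.93, 9.88 and 9.80 in the repeated and 9.34, 8.88 and 9.56 in the withdrawal group. Only 1 withdrawal array reached into the saline range, and the difference was -1.14 ± 0.18 (SE; limma adjusted p = 0.325). With another processing it passed, at an adjusted p of 0.0248 without background subtraction and 0.0121 with a trend in the variance, the highest over all alternatives being 0.706. Crem, a modulator of cAMP-driven transcription, had 6.36, 6.35 and 6.45 in saline, against 6.64 to 7.06 on the cocaine arrays. Its difference was -0.40 ± 0.08 (limma adjusted p = 0.394), and its other probes gave 0.22, -0.32 and 0.01. Fos did not separate the groups, since saline pool 2 with 9.55 lay within the cocaine range of 9.34 to 10.14.

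Of the heat shock list, whose 17 members had a median of -0.13, 5 had an unadjusted p under 0.05, all lower in saline, against 4.16% of all probes. Its summed intensity overlapped between groups, with 35042, 35505 and 33164 in the saline pools, against 35226 to 41144 on the cocaine arrays. Hspa1a, an inducible HSP70 chaperone, averaged 5.83 in saline and 7.32 over the cocaine groups (-1.50 ± 0.30; limma adjusted p = 0.394), and Dnajb1, its co-chaperone, 11.37 and 11.78 (-0.40 ± 0.08; limma adjusted p = 0.394). For Hspa1a, acute array 1 with 5.89 lay within the saline range of 5.21 to 6.48, and the other cocaine arrays lay above it. Its means were 6.65 in the acute, 7.92 in the repeated and 7.40 in the withdrawal group. Other genes lower in saline by the smallest p were Gca, H3c1, Rnd3, Fnip1, Il1rap, Rbm3, H4c4 and Snrnp48. Gca, a calcium-binding protein, had 4.11, 4.42 and 4.72 in saline, against 5.12 to 5.65 on the cocaine arrays (-0.93 ± 0.14; limma adjusted p = 0.263), while its other probes gave -0.35 and -0.12. Rnd3, an atypical small GTPase, had 8.36, 8.22 and 8.28, against 8.58 to 9.02 (-0.45 ± 0.08, limma adjusted p = 0.367). Genes named by their p were picked on these same arrays, so separate ranges in them add no support. Rbm3, a cold-inducible RNA-binding protein, had 4.50, 3.71 and 4.56, against 4.86 to 5.61 (-1.08 ± 0.19; limma adjusted p = 0.370). The H3c1 probe was detected on 1 saline and 9 cocaine arrays, and the Rbm3 probe on 2 and 9. Both entered the fit mainly through the cocaine arrays. The Fnip1 probe, detected on 0 saline and 8 cocaine arrays, entered the fit through the cocaine arrays alone. Counted from the lowest detected signal of each array, the Fnip1 probe was at least 1.89-fold lower in saline. Since the filter kept it only through the cocaine arrays, its direction was set beforehand and is no support for a difference. The other Fnip1 probes gave -0.25, -0.17 and -0.08, and those of Il1rap -0.16, -0.23, -0.50 and 0.09. Those of Snrnp48 gave 0.12 and 0.11, and the other Rbm3 probe gave -0.88.

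Higher in saline by the smallest p were Dnajb3, Hyi, Capn2, Nlrp10, Zfp414, F12, Rad50, 1700024G13Rik, Glis2 and Fbxo46. Dnajb3, a DnaJ family member, had 5.49, 5.21 and 5.38 in saline, against 3.95 to 4.69 on the cocaine arrays (1.06 ± 0.11; limma adjusted p = 0.0574, and 0.0159 to 0.691 over the alternatives), and its other probe gave 0.43. Zfp414, a zinc finger gene, had 7.19, 6.96 and 6.91, against 6.28 to 6.66 (0.56 ± 0.10; limma adjusted p = 0.394). Fbxo46, an F-box gene, had 7.68, 7.52 and 7.58, against 7.01 to 7.41 (0.39 ± 0.08; limma adjusted p = 0.407). Most of the others lay near the floor, and the probes of Nlrp10, 1700024G13Rik and Glis2 were detected on 2 saline and 1 cocaine array, so that they entered the fit mainly through the group in which they were higher. Rad50 was detected on 3 saline and 1 cocaine array. Other probes of Hyi, Zfp414, F12 and Glis2 gave 0.25, 0.27, 0.19 and 0.58. Those of Capn2 gave -0.10, 0.15, -0.13 and -0.16, that of Rad50 -0.08 and that of 1700024G13Rik -0.43.

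Ribosomal genes had a median of 0.14 with 50 of 53 members higher, and genes of oxidative phosphorylation 0.12 with 64 of 71 higher. Of these, 13 and 12 members had an unadjusted p under 0.05, all higher in saline, against 4.2% of all probes. The median over all probes was -0.0037. Members of a list were measured on the same pools, so their directions are not independent. Summed ribosomal intensity was 545792, 543705 and 535468 in the saline pools, against 496647 to 533453 on the cocaine arrays. The sums of oxidative phosphorylation genes overlapped, with 386032, 401782 and 368755 in the saline pools, against 343774 to 380135 on the cocaine arrays. Microglia sums overlapped too, with 7260, 7174 and 6688 in the saline pools, against 5979 to 7482 on the cocaine arrays. Rpl24 was 0.27 ± 0.08 higher (limma adjusted p = 0.493) and Ndufb3 0.28 ± 0.08 higher (limma adjusted p = 0.471). Microglia genes had 14 of 14 members higher at a median of 0.12, Tmem119, a microglial membrane protein, being 0.29 ± 0.10 higher (limma adjusted p = 0.505). No member of these lists passed limma's adjusted threshold. Blood genes had a median of 0.22 with 6 of 6 higher, which was 0.12 without withdrawal array 3 and 0.389 without saline pool 3, and summed haemoglobin and blood intensity was 26551, 21715 and 18140 in the saline pools, against 14946 to 24776 on the cocaine arrays. Medium spiny lists had small medians. The 19 shared members had a median of -0.08 with 5 higher in saline, so that most were lower. Of them, 1 had an unadjusted p under 0.05, lower in saline. The 8 D1 members had 0.02 with 5 higher and the 5 D2 members 0.09 with 4 higher. Rgs9 did not separate the groups, with 13.33, 13.15 and 13.31 in saline, against 13.23 to 13.52 on the cocaine arrays. Its difference was -0.09 ± 0.08 (95% interval -0.26 to 0.08).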

How the data were processed

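Expression was measured in 12 RNA pools, 1 per Illumina MouseWG-6 v2.0 array, in 4 groups of 3 taken from the titles. The authors background-subtracted and quantile normalized the intensity values in BeadStudio, per the series text, and its version is not stated in the text used here. The deposited table presented as raw holds the same normalized intensity plus a constant of 60.7, and a detection p-value per probe and array per the file headers. Differences in total signal between arrays had thus been removed. The number of arrays limits the precision.

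Intensities under 10 were set to 10 before log2 transformation. The summed intensity of a list takes only its members detected on all 3 saline arrays, each by its brightest such probe. Of 45281 probes 34885 had 1 symbol, 18 several and 10378 none. Entrez numbers of 34807 matched RefSeq and 0 symbols changed. The difference between saline and cocaine arrays was fitted with limma 3.58.1 in R 4.3.3 (lmFit and eBayes, all 12 arrays, 4 groups, two-sided), which had been tested on simulated data, and tables were made in Python 3.11.15. Deviations from the group mean correlated between same-numbered saline and cocaine arrays at 0.561, 0.392 and 0.182 for numbers 1, 2 and 3. Unlike numbers gave -0.482 to 0.111, the highest for saline array 3 with the cocaine arrays numbered 2, so number 3 matched less clearly. The number was tried as a block. The labels do not say what same-numbered arrays share. P-values set differences of group means against the spread between pools, and do not take in the variation between single mice.

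Named were the 7 given markers, the 30 highest genes, up to 6 highest, the dimmest and the undetected members of lists, the 10 of widest range, the 10 of smallest p in each direction and 2 per list, and Ehmt2 and Ehmt1. Members, lists and tests were chosen with earlier results of these data known. Other list members named with their levels, and Fos in the comparison with the cocaine arrays, were chosen after their values were seen. Other floors and detection filters, values without background subtraction, a variance trend, the block and leaving out each array were tried as alternatives.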

Additional observations from a re-analysis of the deposited data

How the results depend on the processing

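For genes detected on all 3 saline arrays, the count of 10842 became 10417 with detection p under 0.01, 11644 with detection on 2 of 3 arrays, 12946 with 1 of 3 and 11010 to 11238 when each saline pool was left out. Of the 100 highest genes, 62 remained with the mean over probes, 100 with a floor of 30, 100 without background subtraction and 94 to 98 with a pool left out. The median SD between saline pools of 0.142 became 0.133 with a floor of 30 and 0.109 without background subtraction. It was 0.112 for genes at level 8 or more. With a pool left out it was 0.112 to 0.121, but over 2 pools a median SD tends to be lower at the same spread. Between saline and cocaine, 0 probes passed the adjusted threshold. With a floor of 30 it was 1 (Azin2), without background subtraction 1 (Egr2), with a variance trend 1 (Egr2), and with an array left out 0 to 1, the 1 being Dnajb3 without repeated array 3. By the series criteria 789 probes became 304 with a floor of 30 (135 higher and 169 lower in saline), 28 without background subtraction (4 higher and 24 lower, where the main split was 336 and 453), 437 when detected on all 12 arrays and 762 to 1213 with an array left out, the highest without saline pool 3. The floor and the subtraction act on dim probes, and the cause of the other shifts was not tested. With the replicate number as a block, 0 probes passed and 1069 met the series criteria, and the block changed no other call. Chosen after seeing the data, leaving out the arrays numbered 1 gave 0 and 1000, and number 1 against 2 and 3 as a block gave 0 and 981. The differences of 30 named genes kept their sign in all 510 recomputed values. These genes were picked by their p in the main fit and the alternatives reuse the same arrays. A change of sign was thus unlikely from the outset, and its absence is no support. The numbers of detected members of the 67 lists changed by more than 1.5 times in 33 of 402 recomputed counts. The median difference of the blood list, 0.221, ran from 0.12 without withdrawal array 3 to 0.389 without saline pool 3.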

Other observations

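Y-linked genes were present in all 3 saline pools, Eif2s3y with 10.05, 9.83 and 9.87 and Kdm5d with 7.24, 6.96 and 7.01, while Xist was not detected. Of 16 crystallin genes 3 were detected, led by the small heat shock protein gene Cryab (10.00 ± 0.16, SD, n = 3). Of 21 sarcomere genes 10 were detected at a median level of 4.93, led by the muscle actin Acta1 (8.56 ± 0.15). All 17 analysed heat shock genes were detected, Hspa8, a constitutive chaperone, with 13.69, 13.87 and 13.70.

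Probes without a gene symbol were detected less often. Of 10396 probes with no single symbol 3032 (29.2%) were detected on all 3 saline arrays, against 49.6% of named probes. A total of 6111 genes were not detected on any saline array.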
